A study of Mus musculus with 6 samples.

Results

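The genes described here are 36 targets of the transcription factor p53 and regulators of apoptosis, measured in cultured mouse spermatogonial stem cells given captopril or water. Their probes were found through the RefSeq transcript accession that each array probe carries. The 36 genes had 49 probes, and 35 of the genes entered the tests, among 14859 named genes tested in all. These 35 were well above background on all 6 arrays. The remaining gene, Eda2r, was not well above background on any array.

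Spermatogonial stem cells sustain sperm production in the adult testis. Here they were obtained by passaging dissociated testis cells on gelatin and were then kept on mouse embryonic fibroblasts as feeder cells. In the captopril group, 0.01 M captopril, an inhibitor of angiotensin-converting enzyme, was present for 24 h. The water group received sterile water, for which the labels also give 0.01 M, for 24 h. No strain, age or genotype of the animals is given in the sources used here. RNA from 3 cultures per group, which the design text calls independent experiments, was hybridised to single-colour Agilent arrays numbered 2, 3 and 4 in each group. No source used here ties the cultures to separate animals, so the p-values measure the spread between these samples.

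p53 is a transcription factor that becomes stable after DNA damage and other stress and switches on genes of growth arrest, repair and cell death. One of its targets, Mdm2, encodes the ligase that marks p53 for destruction. Mitochondrial apoptosis is decided among proteins of the BCL2 family. Survival members hold the pore-forming members BAX and BAK in check, and BH3-only members relieve that restraint. Cytochrome c then leaves the mitochondria and assembles APAF1 and caspase 9 into the apoptosome, while inhibitor of apoptosis proteins restrain the caspases. In the testis this machinery removes surplus and damaged germ cells.

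All levels below are log2 signals relative to the 75th percentile of their own array, and all differences are captopril minus water on that log2 scale. Differences were tested with limma over all 14859 genes, with p-values adjusted by the Benjamini-Hochberg method and a threshold of 0.05. Between 52.2% and 60.5% of the spots of an array were well above background. The number of arrays limits the precision. Water replicate 3 stood apart from all other arrays: it correlated with them at 0.878 to 0.893 over 32421 probes, whereas the other 5 correlated at 0.970 to 0.991 with each other. It was the highest of the 6 arrays for 23 of the 35 tested genes of this group and the lowest for 5. It was the highest for 54.8% and the lowest for 24.1% of all genes tested. Each value is therefore given over all 6 arrays and again without this array. Leaving it out gives a comparison over 5 arrays, 2 of water and 3 of captopril.

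Of 15 spermatogonial markers, 14 were well above background on all 6 arrays, among them Ddx4, Dazl, Zbtb16 and Sall4. Gfra1 was so on some arrays. All 13 fibroblast markers were also well above background on all arrays. Of these 13, 6 (46.2%) were lower with captopril at an unadjusted p under 0.05 in both comparisons, with no overlap of the groups. They were Col3a1, Pdgfrb, Lum, Postn, Fbn1 and Prrx1. Of all genes, 8.24% over 6 arrays and 19.1% without water replicate 3 had such a p (4.93% and 7.0% lower). Lower with no overlap were 11.4% and 15.7% of all genes. None of the 13 passed after adjustment. Without water replicate 3, 4 others of the 13 (Col1a2, Thy1, Pdgfra and Twist1) lay higher with no overlap, where 27.2% of all genes did. The median difference of the 13 was −0.49 over 6 arrays and −0.30 without water replicate 3, with 10 and 9 of 13 negative. The summed signal of the 13 fibroblast genes, relative to the 75th percentile, was 124 to 220 on the water arrays and 105 to 134 on the captopril arrays, and the groups overlapped. That sum came mostly from Col1a1, Col1a2, Col3a1 and Dcn, so it does not describe the 13 genes as a set. The spermatogonial markers stood at −0.02 and 0.13. Their summed signal was 86.6 to 127 in water and 92.0 to 116 with captopril. Of 10 Sertoli and Leydig cell genes, 4 (Sox9, Wt1, Amhr2 and Star) were well above background on all 6 arrays, and Gata4 on some. Amh, Cyp11a1, Fshr and Hsd3b1 were not well above background on any array. The summed signal of Sox9, Wt1, Amhr2 and Star, the 4 that were tested, was 0.913 to 1.70 in water and 0.827 to 0.974 with captopril. That of the 6 tested leukocyte genes was 38.9 to 65.8 and 44.1 to 57.2. These sums came mostly from Itgam, which was at 5.09 on water replicate 4, its lowest array. The other leukocyte genes tested did not exceed 1.99 (Lyz2, water replicate 4) on any array. The sums therefore do not describe the 6 genes as a set. Among the 6, Cd3g stood at −2.04 over 6 arrays (adjusted p = 0.455) and at −1.57 over 5 (adjusted p = 0.036). The second was past the threshold in 5 of 11 alternatives. Cd3g was well above background on only some arrays. Its level of −5.10 on captopril replicate 4 lay under −4.86, the lowest level of a probe well above background there. Only a bound holds for that reading, so neither difference is a measured size. Ptprc, also well above background on only some arrays, was at −5.15, −6.85 and −5.49 in water and at −4.62, −4.91 and −4.33 with captopril. Its readings on water replicates 3 and 4 lay under the lowest level of a probe well above background there (−4.93 and −5.15). Only a bound holds for them, so no difference of Ptprc is given. Lyz2 read −5.88 on water replicate 3, also under −4.93. What the feeder cells or other cells contribute to the values below was not tested. In such mixed cultures, fewer cells of a type and less RNA per cell cannot be told apart.

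No p53 target or apoptosis gene of the 35 tested passed the threshold, in either comparison. Over 6 arrays limma called 0.0% of all genes. Of the 35, 1 had an unadjusted p under 0.05, namely Pmaip1, which was lower with captopril (2.86%, where 8.24% of all genes had such a p, 3.31% higher and 4.93% lower). Their smallest adjusted p was 0.588. Without water replicate 3, limma called 0.619% of all genes (0.417% higher and 0.202% lower) and none of the 35, whose smallest adjusted p was 0.219. The 0.619% was not stable, since 6 of 11 alternatives to this comparison called 0 genes, with at most 137 under any of them. In that comparison 4 of the 35 had an unadjusted p under 0.05 (11.4%, where 19.1% of all genes had one, 12.1% higher and 7.0% lower). These were Zmat3 and Bak1, both higher with captopril, and Pmaip1 and Bcl2l11, both lower. In both comparisons the share among the 35 lay below that of all genes.

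The 2 comparisons leaned in opposite directions. Over 6 arrays 13 of the 35 differences were positive and 22 negative, where 46.7% of all genes were positive and 53.3% negative. The median of the 35 was −0.15 and that of all genes −0.03. With water replicate 3 left out, 22 were positive and 13 negative, where 58.5% of all genes were positive and 41.5% negative. The medians were then 0.06 and 0.07. The sign changed for 11 of the 35, and it did so for 27.8% of all genes. These splits also moved with the scaling. With each array scaled by its median, 4 were positive and 31 negative over 6 arrays, and 14 and 21 without water replicate 3. With quantile normalization the counts were 14 and 21, and 19 and 16.

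**Figure D1:**
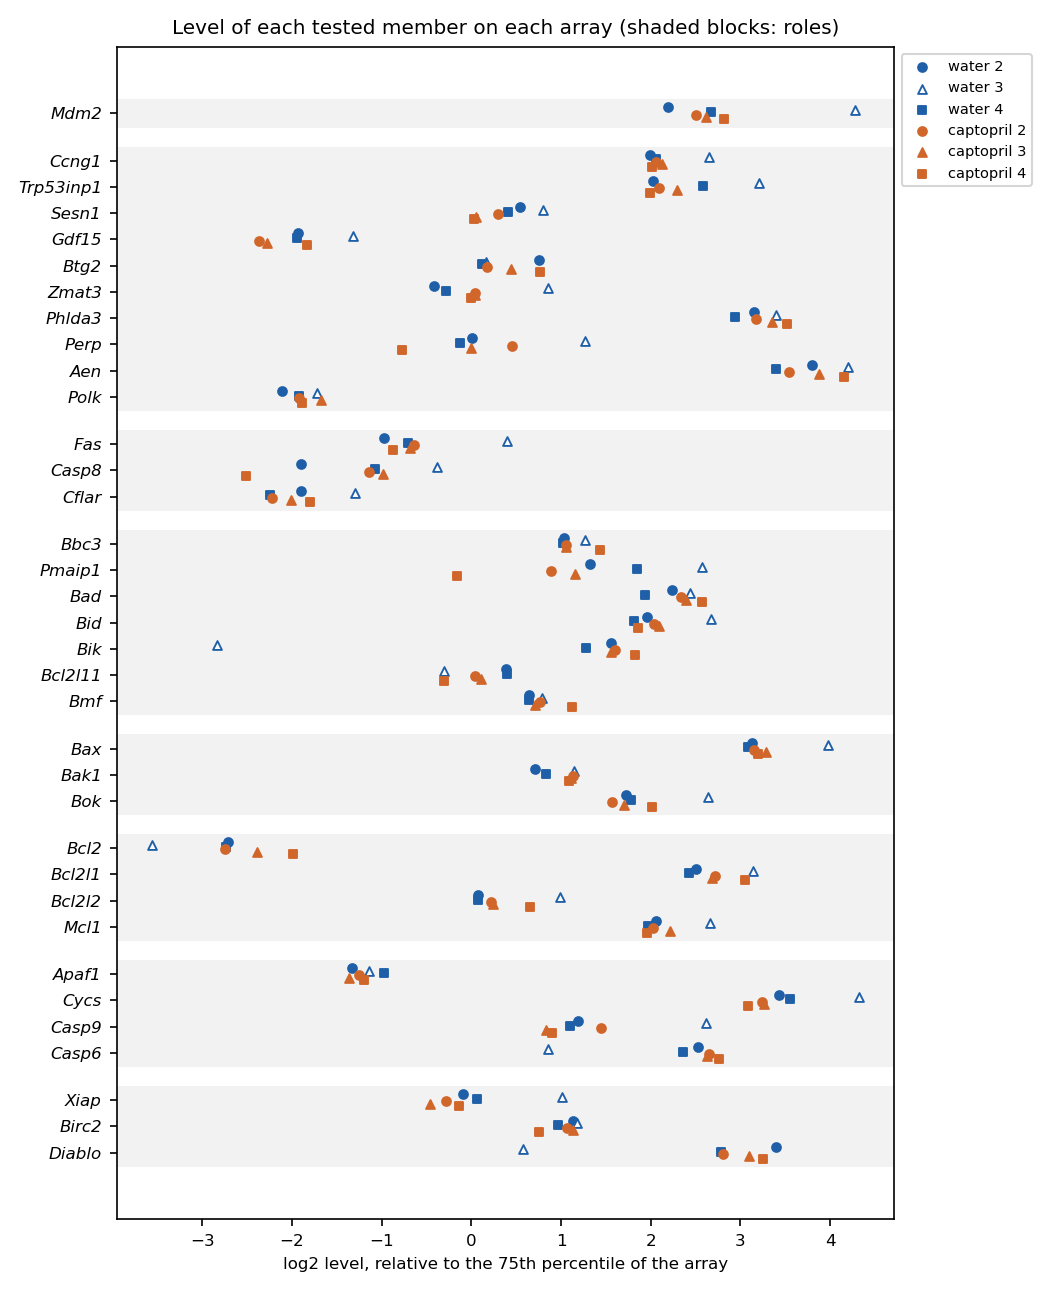
Log2 level of the 35 tested genes (rows, in blocks by role) on each of the 6 arrays, relative to the 75th percentile of the array. Blue symbols are water arrays, orange symbols captopril arrays, and the open triangle is water replicate 3, which was the highest array for 23 genes and the lowest for 5.

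The data bounded most of these differences. In the comparison without water replicate 3, the 95% interval of 33 of the 35 differences (94.3%) lay within 1 of 0 on the log2 scale, which corresponds to less than a 2-fold change either way. For all genes that share was 81.2%. The exceptions were Pmaip1 and Casp8. Over 6 arrays the intervals were wider, and 20 of the 35 (57.1%, against 49.0% of all genes) lay within 1 of 0. The intervals are not adjusted for the number of genes. The median standard error was 0.29 over 6 arrays and 0.17 without water replicate 3.

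**Figure D2:**
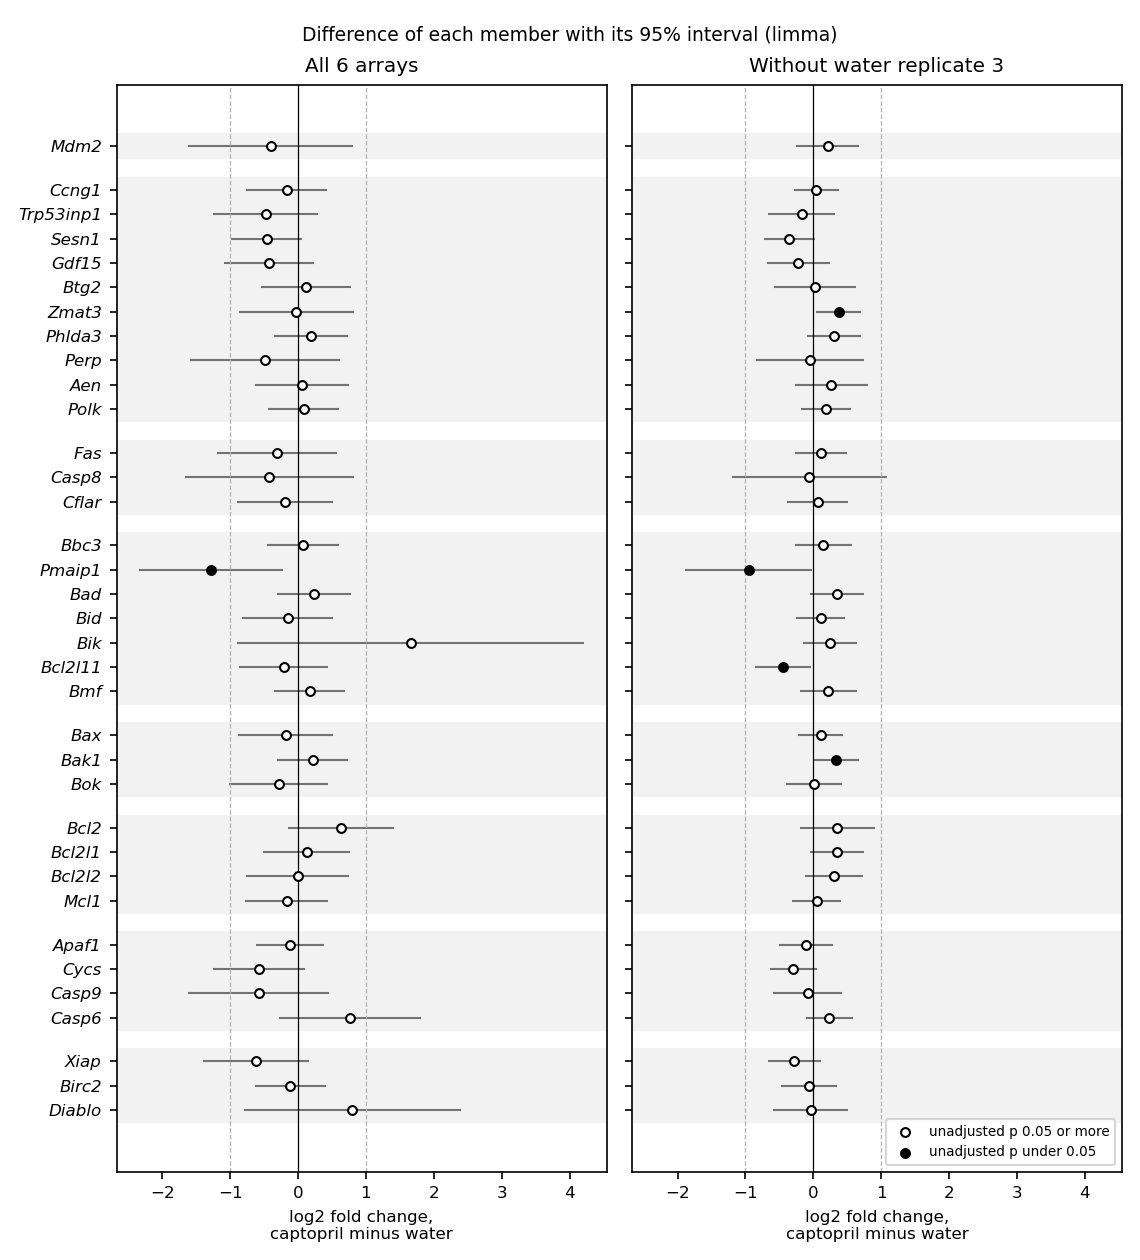
Difference in log2 level, captopril minus water, for the 35 genes with its 95% interval from limma, over all 6 arrays on the left and without water replicate 3 on the right. Filled points have an unadjusted p under 0.05 (1 gene on the left, 4 on the right), no gene passed after adjustment, and the dashed lines mark 1 and −1.

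The p53 target with the largest difference was Pmaip1, which encodes NOXA, a BH3-only protein that neutralises MCL1. Its level was 1.32, 2.57 and 1.84 on water replicates 2, 3 and 4, and 0.89, 1.16 and −0.16 on captopril replicates 2, 3 and 4. All captopril arrays lay below all water arrays, and captopril replicate 4 lay more than 1 below the other captopril arrays. The difference was −1.28 over 6 arrays (SE 0.45, unadjusted p = 0.025, limma adjusted p = 0.588). In the comparison of 5 arrays it was −0.95 (SE 0.39, 95% interval −1.89 to −0.02, adjusted p = 0.255). Water levels were thus 2.43-fold and 1.94-fold those with captopril. Leaving out 1 array at a time gave −1.58 to −0.89 over the 6 arrays, so that the sign did not turn. By unadjusted p it ranked 614 of 14859 genes over 6 arrays and 2703 without water replicate 3.

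Mdm2, the p53 feedback gene, is set out here because of its role and its values on the water arrays. It stood at 2.19, 4.27 and 2.68 on water replicates 2, 3 and 4 and at 2.51, 2.61 and 2.82 on captopril replicates 2, 3 and 4. The captopril arrays lay above water replicate 2 and below water replicate 3, and captopril replicate 4 lay above water replicate 4 as well. Water replicate 3 lay 1.84 above the mean of water replicates 2 and 4. The difference was −0.40 over 6 arrays (SE 0.51, adjusted p = 0.791). With 5 arrays it was 0.21 (SE 0.20, 95% interval −0.26 to 0.68, adjusted p = 0.572).

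Zmat3, an RNA-binding protein gene activated by p53, had the smallest p without water replicate 3 among the members at their brightest probes. Its level was −0.42, 0.85 and −0.29 on the water arrays and 0.04, 0.04 and −0.01 on the captopril arrays. The 3 captopril arrays lay close together, above water replicates 2 and 4 and below water replicate 3. The difference was −0.02 over 6 arrays (SE 0.36, adjusted p = 0.988) and 0.38 without water replicate 3 (SE 0.14, 95% interval 0.04 to 0.71, adjusted p = 0.219).

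Sesn1 encodes sestrin 1, a p53-induced protein that restrains the growth kinase mTORC1. It stood at 0.54, 0.80 and 0.41 in water and at 0.30, 0.05 and 0.03 with captopril. All captopril arrays lay below all water arrays. The difference was −0.46 (SE 0.22, adjusted p = 0.618) over 6 arrays and −0.35 (SE 0.16, adjusted p = 0.282) without water replicate 3.

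The other p53 targets of growth, repair and metabolism had differences of both signs. Phlda3, which restrains AKT, stood at 0.19 over 6 arrays and at 0.31 without water replicate 3. Aen, a nuclease gene, and Polk, a lesion-bypass DNA polymerase gene, stood at 0.06 and 0.08, and then at 0.26 and 0.19. Ccng1, the cyclin G1 gene, stood at −0.17 and 0.04, with a 95% interval of −0.29 to 0.37 in the second comparison. The antiproliferative gene Btg2 stood at 0.12 and 0.03, and Perp, a membrane protein gene of p53-dependent death, at −0.49 and −0.05. Trp53inp1 and the stress cytokine gene Gdf15 stood at −0.48 and −0.43, and without water replicate 3 at −0.17 and −0.22. A second Trp53inp1 probe, well above background on all 6 arrays, stood at 0.03 (SE 0.21) and −0.01 (SE 0.16), so the −0.48 depended on the probe. The adjusted p of these 8 genes ranged from 0.641 to 0.955 over 6 arrays and from 0.361 to 0.962 without water replicate 3.

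The sequences before the start sites were searched for the p53 consensus decamer, since these genes are grouped as targets of 1 transcription factor. The decamer is 3 purines, a C, a pair of A or T bases, a G and 3 pyrimidines, so a match on one strand is a match on the other. Promoter windows of RefSeq (GRCm38.p6), from 250 bases before to 50 bases after the start site, were given for 12 of the 16 p53 targets. A decamer was found for 6 of these 12 genes, in 7 of their 18 windows (38.9%). Of 28 windows of 19 apoptosis regulators 2 held one (7.14%), as did 8.36% of all 32851 windows. For 44 other p53 target genes, from a longer list described further on, 5 of 61 windows held one (8.2%), so the share of the 12 genes was not shared by that list. No window of the 16 targets or of the apoptosis regulators held a pair of decamers at most 13 bases apart. The stretches before the start site are shown 5′ to 3′ on the gene's strand, with the decamer in capitals.
Mdm2 (chr10:117710910-117710969, minus strand): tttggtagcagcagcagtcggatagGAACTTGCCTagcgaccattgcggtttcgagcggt
Ccng1 (chr11:40755437-40755496, minus strand): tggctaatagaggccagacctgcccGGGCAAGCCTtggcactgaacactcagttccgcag
Sesn1 (chr10:41887241-41887300, plus strand): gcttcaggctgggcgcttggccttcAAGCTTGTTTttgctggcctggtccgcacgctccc
Bax (chr7:45467065-45467124, minus strand): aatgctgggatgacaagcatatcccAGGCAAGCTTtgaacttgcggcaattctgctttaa
Aen (chr7:78895912-78895971, plus strand): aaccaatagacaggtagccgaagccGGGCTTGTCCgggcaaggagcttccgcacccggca
Polk (chr13:96519384-96519437, minus strand): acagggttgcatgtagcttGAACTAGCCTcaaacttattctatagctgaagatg
The decamer begins 121 (Aen) to 231 (Polk) bases before the start site. These are matches of letters, not measured binding sites. The 6 genes did not share a direction without water replicate 3: Sesn1 stood at −0.35, and the other 5 between 0.04 (Ccng1) and 0.26 (Aen). Over 6 arrays Mdm2, Ccng1, Sesn1 and Bax had negative differences, and Aen and Polk had differences of 0.06 and 0.08.

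The BH3-only genes, whose products start mitochondrial apoptosis, gave differences of both signs. Of the 7, including Pmaip1, 4 were positive and 3 negative over 6 arrays (median 0.07). Over 5 arrays, 5 were positive and 2 negative (median 0.15). Bcl2l11 encodes BIM, which signals loss of growth factors. It stood at 0.39, −0.31 and 0.40 on the water arrays and at 0.04, 0.11 and −0.30 on the captopril arrays. The captopril arrays lay below water replicates 2 and 4, while water replicate 3 lay as low as the lowest captopril array. The difference was −0.21 over 6 arrays (SE 0.28, adjusted p = 0.801) and −0.45 without water replicate 3 (SE 0.17, 95% interval −0.86 to −0.03, adjusted p = 0.235).

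Bik encodes a BH3-only protein of the endoplasmic reticulum. Its level was 1.55, −2.84 and 1.28 on the water arrays and 1.60, 1.56 and 1.82 on the captopril arrays. The groups did not overlap, and the shift of water replicate 3 from the mean of the other water arrays was −4.26. The difference was 1.66 over 6 arrays (SE 1.09, adjusted p = 0.641) and 0.24 without that array (SE 0.17, 95% interval −0.15 to 0.64, adjusted p = 0.449). The remaining BH3-only genes were Bbc3, which encodes PUMA, Bmf, Bad and Bid, at 0.07, 0.17, 0.23 and −0.15 over 6 arrays. Over 5 arrays they stood at 0.15, 0.22, 0.35 and 0.11, with adjusted p of 0.304 to 0.702.

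Of the pore-forming genes, Bak1 stood at 0.70, 1.15 and 0.83 on the water arrays and at 1.13, 1.11 and 1.08 on the captopril arrays. The captopril arrays lay above water replicates 2 and 4 and below water replicate 3. The difference was 0.21 over 6 arrays (SE 0.22, adjusted p = 0.736) and 0.34 without water replicate 3 (SE 0.14, 95% interval 0.01 to 0.67, adjusted p = 0.251). Bax, a p53 target as well, stood at −0.18 and then 0.11, with an interval of −0.23 to 0.44 in the second comparison. Bok, a related gene, stood at −0.29 and 0.01.

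None of the 4 survival genes of the BCL2 family passed the test. Without water replicate 3 their differences were positive, as were 58.5% of all genes, and that of Mcl1 was close to 0. Bcl2 was at −2.71, −3.56 and −2.74 in water and at −2.75, −2.39 and −1.98 with captopril, and captopril replicate 2 overlapped with water. Its difference was 0.63 (SE 0.33, adjusted p = 0.627) and then 0.35 (SE 0.23, adjusted p = 0.437). Bcl2l1, which encodes BCL-XL, was at 2.50, 3.14 and 2.43 in water and at 2.71, 2.69 and 3.05 with captopril. Its difference was 0.13 (SE 0.27) and then 0.35 (SE 0.17, adjusted p = 0.309). Bcl2l2 was at 0.07, 0.99 and 0.07 in water and at 0.22, 0.24 and 0.65 with captopril. For both genes the captopril arrays lay above water replicates 2 and 4 and below water replicate 3. The Bcl2l2 difference was −0.01 (SE 0.32) and then 0.30 (SE 0.18, adjusted p = 0.399). Mcl1 was at 2.06, 2.66 and 1.97 in water and at 2.03, 2.21 and 1.96 with captopril, with a difference of −0.16 (SE 0.26) and then 0.05 (SE 0.15, adjusted p = 0.875). A second Mcl1 probe stood at −0.27 in that comparison. The 4 genes together had a median of 0.06 over 6 arrays and of 0.32 without water replicate 3. With scaling by the array median, the differences of Bcl2, Bcl2l1, Bcl2l2 and Mcl1 in the second comparison were 0.22, 0.22, 0.17 and −0.08.

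The genes of the death receptor branch did not pass the test at their brightest probes. Fas, the death receptor gene, stood at −0.30 over 6 arrays (SE 0.38, adjusted p = 0.784). Over 5 arrays it stood at 0.11 (95% interval −0.27 to 0.50). Casp8, the initiator caspase of that receptor, stood at −0.42 and −0.06, with an interval of −1.21 to 1.09 in the second comparison. Its arrays were scattered within both groups, with SDs of 0.59 over water replicates 2 and 4 (n = 2) and 0.84 over the captopril arrays (n = 3). Cflar, the gene of the caspase 8 inhibitor FLIP, stood at −0.19 and 0.06. Another Cflar probe, well above background on all 6 arrays, stood at 0.68 (SE 0.74) and −0.19 (SE 0.30), so the direction depended on the probe. The mean over the Cflar probes gave 0.17 without water replicate 3. Over 6 arrays that mean includes a reading not well above background on water replicate 3, so it is not given. Eda2r, a receptor of the tumour necrosis factor family and a p53 target, had 2 probes, which lay between −7.47 and −6.32 and were not well above background, so that no fold is given.

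Among the genes of the apoptosome, Cycs, which encodes cytochrome c, was at 3.43, 4.32 and 3.55 in water and at 3.24, 3.26 and 3.09 with captopril. All captopril arrays lay below all water arrays. The difference was −0.57 (SE 0.29, adjusted p = 0.619) over 6 arrays and −0.30 (SE 0.15, 95% interval −0.64 to 0.05, adjusted p = 0.316) without water replicate 3. A second Cycs probe was at 2.54, 2.83 and 2.66 in water and at 2.19, 1.83 and 2.20 with captopril, again with no overlap. In a fit of all probes its difference was −0.60 (SE 0.22, limma unadjusted p = 0.032, adjusted p = 0.648). Without water replicate 3 it was −0.53 (SE 0.17, unadjusted p = 0.019, adjusted p = 0.187). The counts of genes with an unadjusted p under 0.05 use the brightest probe of a gene, so they leave this probe out. The last Cycs probe was not well above background on any array. Cytochrome c also carries electrons in respiration, so its transcript is not specific to cell death.

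Casp6, an effector caspase gene, was at 2.53, 0.85 and 2.36 in water and at 2.65, 2.62 and 2.76 with captopril. The captopril arrays lay above all water arrays, and the shift of water replicate 3 from the mean of the other water arrays was −1.59. The difference was 0.77 (SE 0.45, adjusted p = 0.631) and, without that array, 0.24 (SE 0.15, 95% interval −0.11 to 0.58, adjusted p = 0.408). Casp9 stood at −0.58 and −0.09 and Apaf1 at −0.12 and −0.11, and the interval of Apaf1 in the second comparison was −0.51 to 0.28.

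Xiap, the direct caspase inhibitor, was at −0.10, 1.01 and 0.07 in water and at −0.28, −0.46 and −0.14 with captopril. All captopril arrays lay below all water arrays, with captopril replicate 4 close to water replicate 2. The difference was −0.62 (SE 0.33, adjusted p = 0.628) and then −0.28 (SE 0.16, adjusted p = 0.383). Birc2, a ubiquitin ligase of the same family, stood at −0.11 and −0.07. Diablo, whose product releases caspases from these inhibitors, is given by array because of its values. It was at 3.40, 0.58 and 2.78 in water and at 2.81, 3.09 and 3.25 with captopril. The shift of water replicate 3 from the mean of the other water arrays was −2.51, and the difference was 0.80 (SE 0.68) with it and −0.04 (SE 0.23, 95% interval −0.59 to 0.51) without it. A second Diablo probe, well above background on all 6 arrays, stood at 0.28 (SE 0.65) in a fit of all probes. Without water replicate 3 it stood at −0.48 (SE 0.24, limma adjusted p = 0.328), so the size depended on the probe.

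Over 6 arrays the groups were fully separated for 6 of the 35 genes (17.1%), where they were for 21.5% of all genes, 1493 higher and 1699 lower with captopril. The 2 that lay above all water arrays, Bik and Casp6, were the lowest on water replicate 3, and the 4 that lay below were Pmaip1, Sesn1, Cycs and Xiap. With water replicate 3 left out the number was 17 of 35 (48.6%), 12 higher and 5 lower, where it was 42.9% of all genes, 27.2% higher and 15.7% lower.

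Several members had more than 1 probe, which shows how far a value depends on the probe. Of the 35 genes, 10 had several tested probes, which gave 11 pairs of the brightest probe with another. Over 6 arrays the paired probes differed in sign in 4 of 11 pairs. These were Aen (0.06 and −0.07), Trp53inp1 (−0.48 and 0.03) and both Cflar pairs. The median gap between the differences of paired probes was 0.52. These counts include pairs of Bcl2l1, Cflar and Polk in which 1 probe was not well above background on water replicate 3. For those pairs the gap over 6 arrays is not a measured size. With 5 arrays they differed in sign in 2 of 11, with a median gap of 0.23. The 2 were 1 of the Cflar pairs, at 0.06 and −0.19, and Mcl1, at 0.05 and −0.27.

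On water replicate 3, some probes of the same gene lay in opposite directions from the other water arrays. Relative to the mean of water replicates 2 and 4, 6 of the 11 pairs had 1 probe above and the other below on that array. Among the 6 was Trp53inp1, whose second probe, at −0.20, lay between water replicates 2 (0.05) and 4 (−0.24). In the pairs of Bcl2l1 and Polk and 1 pair of Cflar, the lower probe was not well above background on water replicate 3. The brightest Bcl2l1 probe lay 0.68 above, while its second probe read −5.88 there and 1.46 and 0.97 on the other water arrays, and was not well above background on that array. That reading lay under −4.93, the lowest level of a probe well above background on that array, so only a bound holds there and no difference over 6 arrays is given. Without water replicate 3 the second probe gave a difference of 0.14. The second Bad probe lay at −3.05 against −0.91 and −0.95, and the brightest Bad probe lay 0.35 above. Both Diablo probes lay below, at −2.51 and −2.29 relative to those water arrays. For Cflar, the brightest probe lay 0.77 above and another at −2.60, while the last read −6.67, again under −4.93. The second Polk probe read −6.48 on that array, under −4.93 as well.

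**Figure D3:**
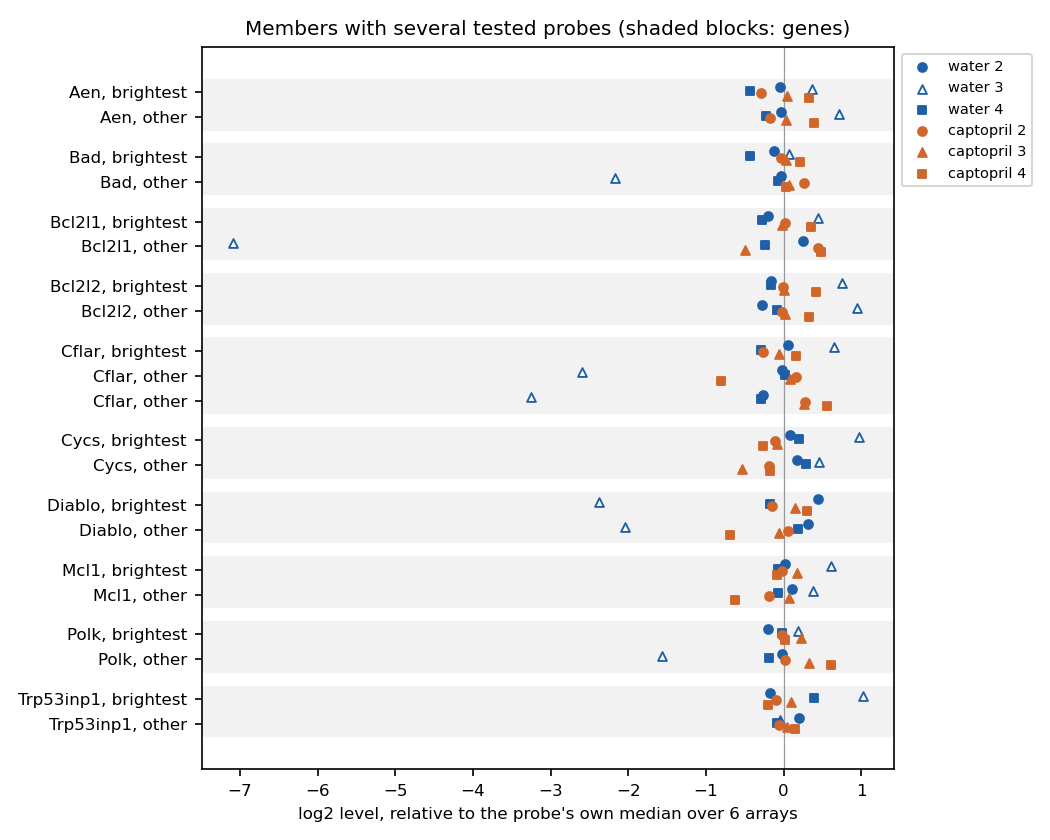
Log2 level of each tested probe of the 10 members with several tested probes, on each array, relative to that probe's own median over the 6 arrays. Water replicate 3 (open triangle) lies above 0 for 1 probe and far below 0 for another of the same gene in Bad, Bcl2l1, Cflar and Polk. The other 5 arrays lie closer together. The lowest points of water replicate 3 for Bcl2l1, Cflar and Polk are readings not well above background.

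A dim Cflar probe for the transcript NM_207653 had the smallest unadjusted p of all member probes without water replicate 3. It was at −3.68 and −3.71 on water replicates 2 and 4 and at −3.13, −3.15 and −2.86 with captopril. On water replicate 3 it was at −6.67 and not well above background. The difference was 0.65 (SE 0.16, unadjusted p = 0.0052, limma adjusted p = 0.117 over all probes). A different probe for that transcript stood at −0.19 (SE 0.30) in the same fit, so the probes of this transcript did not show a common difference.

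Other genes of these pathways were read from longer lists that hold none of the 36. Of 51 other p53 target genes 47 were tested. Over 6 arrays none passed, and without water replicate 3 the single gene past the threshold was Abcb1a. Abcb1a encodes a drug efflux pump. It was at −3.65, −3.23 and −3.59 in water and at −2.32, −2.23 and −2.68 with captopril. The captopril arrays lay above all water arrays. It stood 1.21 higher without water replicate 3 (SE 0.18, adjusted p = 0.049), and over 6 arrays it stood at 1.08 (SE 0.24, adjusted p = 0.455). Under 11 alternatives to the comparison over 5 arrays its difference was 0.98 to 1.34. Its limma adjusted p was 0.043 to 0.401, and it lay past the threshold in 2 of them, so the call did not hold when any 1 further array was left out.

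The other p53 targets with the smallest p had lower levels with captopril. Igfbp3, which encodes a binding protein of insulin-like growth factors, stood at −0.96 without water replicate 3 (SE 0.16, adjusted p = 0.056) and at −0.76 over 6 arrays. Ddit4, a stress-induced inhibitor of mTORC1, was at 3.31, 3.53 and 3.22 in water and at 2.72, 2.64 and 2.62 with captopril, with no overlap. Its difference was −0.61 without water replicate 3 (SE 0.14, adjusted p = 0.094) and −0.70 over 6 arrays (SE 0.21, adjusted p = 0.530). Plk5 stood at −0.74 (adjusted p = 0.118) and −1.15. Over 5 arrays, 28 of the 47 were positive, with a median of 0.05, and 12 of 47 had an unadjusted p under 0.05 (25.5%, against 19.1% of all genes), 7 higher and 5 lower. The corresponding count over 6 arrays was 5 of 47 (10.6%, against 8.24%), 1 higher and 4 lower.

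Of 63 other apoptosis genes 56 were tested and none passed in either comparison. Over 6 arrays 20 were positive and 36 negative (median −0.09), and 1 of 56 (1.79%, where 8.24% of all genes did) had an unadjusted p under 0.05, namely Hrk. Hrk, a BH3-only gene, was at −2.82, −2.24 and −3.17 in water and at −4.17, −3.78 and −3.27 with captopril. Its difference was −0.99 (SE 0.34, adjusted p = 0.587) and, without water replicate 3, −0.74 (SE 0.27, adjusted p = 0.217). Septin4, Pdcd10 and Aifm2 followed at −0.98, −0.46 and 0.70, and without water replicate 3 they stood at −0.60, −0.32 and 0.28. Over 5 arrays, 35 were positive and 21 negative (median 0.07), and 6 of 56, where 19.1% of all genes did, had an unadjusted p under 0.05. Bcl2l14, Tradd, Bcl2l15 and Tnfrsf25 then had the smallest p, at 0.58, 0.49, 0.51 and 0.65, with adjusted p of 0.109 to 0.183. Over 6 arrays these 4 stood at 0.23, 0.13, −0.06 and 0.29.

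The level of each list on each array shows the same split. With each gene set to its median over the 6 arrays, the 15 p53 targets stood at −0.05, 0.61 and −0.02 on water replicates 2, 3 and 4. They stood at −0.06, 0.02 and 0.02 on captopril replicates 2, 3 and 4. The 20 apoptosis regulators stood at −0.02, 0.26 and −0.11 and at −0.03, 0.01 and 0.09. Water replicate 3 was the highest array for both, and the other 5 arrays lay close to 0 with both groups mixed. The median of all genes tested was 0.36 for water replicate 3, and the other 5 ranged from −0.07 to 0.09.

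**Figure D4:**
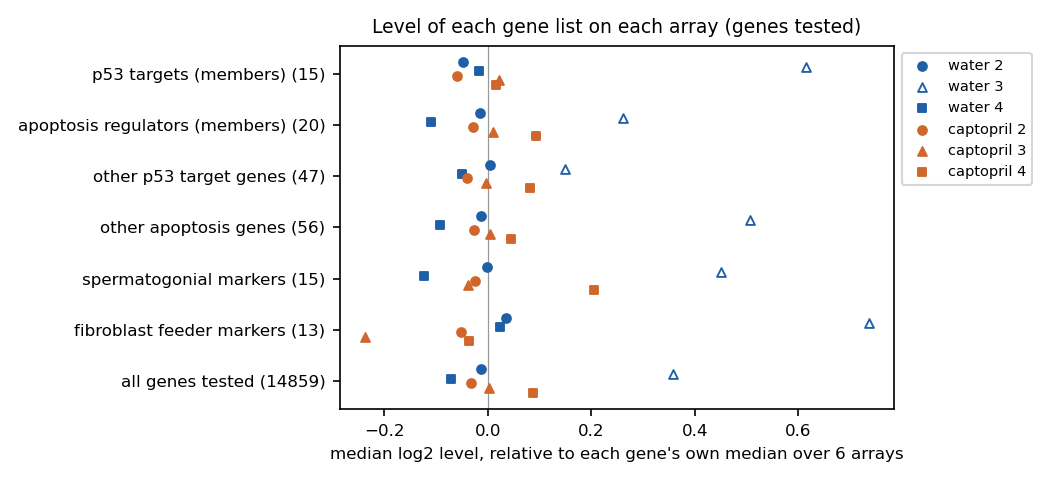
Median log2 level of each gene list on each array, with each gene set to its median over the 6 arrays, and with the number of tested genes in brackets. Water replicate 3 (open triangle) is the highest array for all 7 rows, at 0.61 for the p53 targets and 0.36 for all genes tested.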

How the data were processed

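The deposited spot intensity came from Agilent's Feature Extraction software (10.7 per the submitters' processing notes, another version per the file headers), which subtracted the background within each array per the file headers. The authors' deposited series table holds log2 values that differ from log2 of the processed signal by a constant per array close to the 75th percentile, and it was used as an alternative. Its column medians were −4.24 to −3.62.

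Log2 of the processed signal minus the 75th percentile of each array was used. Control and outlier spots were left out, spots of a probe were averaged, and 63 of 55681 probes that lacked an array were dropped. Accessions were matched to RefSeq symbols (GRCm38.p6), which named 26762 probes. The array design used another assembly, so coordinates are given only for RefSeq promoters. A gene's value was that of the brightest probe that passed the background flag on 3 or more arrays, chosen over 6 arrays in both comparisons. limma 3.58.1 in R 4.3.3 was used, with Python 3.11.15, and the code was tested on simulated data. All p-values are two-sided.

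All arrays share 1 slide and 1 scan time. Slide row 1 holds water replicates 2 and 3, and row 2 holds the remaining 4 arrays. Deviations of same-numbered arrays from their group means correlated at r = −0.02, 0.02 and −0.19 for numbers 2, 3 and 4. The water means include water replicate 3, so these values cannot show whether the numbers mark pairs. The numbers were not taken as pairs, and a fit with the replicate number as a block is among the alternatives.

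Members and lists were chosen with earlier results of these data known. Values by array are given for genes with an unadjusted p under 0.05 in either comparison, for genes without overlap over 6 arrays and for survival genes of the BCL2 family. Beyond this rule they are given for Mdm2 and Diablo. Eda2r, which was not well above background, is given as a range. Up to 4 genes with the smallest p per other list are named. Alternatives were normexp (offset 50, on median signals), quantile and median scaling, other filters, averaging over probes, the deposited table, a trended variance with robust eBayes, blocks, slide row 2 alone, a threshold of 0.10 and each array left out.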

Additional observations from a re-analysis of the deposited data

How the results depend on the processing

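The number of the 35 genes past the threshold was 0 under each of the 17 alternatives to the comparison of 6 arrays, at a threshold of 0.10, and under each of the 11 alternatives to the comparison without water replicate 3. At an unadjusted p under 0.05 the counts were 0 to 4 and 0 to 5. The smallest adjusted p under any of them was 0.219 and 0.128 (limma). With the replicate number as a block the count was 0, and the replicate block left the medians of the p53 targets and apoptosis regulators at −0.18 and −0.12. Over all alternatives 12 of the 35 genes kept 1 sign over 6 arrays, Pmaip1, Sesn1, Cycs and Xiap among them, and 19 of 35 without water replicate 3. The median difference of the p53 targets was −0.18 over 6 arrays and −0.49 with scaling by the array median. That of the apoptosis regulators was −0.12, and −0.42 with that scaling, which by itself moved the median of all genes from −0.03 to −0.33. Slide row as a block and slide row 2 alone, both with water replicate 4 as the only water array beside captopril, put the apoptosis regulators at 0.20. Leaving out 1 array at a time gave medians of −0.34 to 0.11 for the p53 targets and −0.13 to 0.056 for the apoptosis regulators, positive only without water replicate 3. In the comparison without water replicate 3 the p53 targets had a median of 0.11, and the apoptosis regulators of 0.056. Quantile normalization gave 0.025 and −0.013, and scaling by the array median −0.026 and −0.076, so the direction of these medians depended on the scaling. Leaving out 1 further array gave 0.016 to 0.14 and 0.051 to 0.20, with the lowest p53 value and the highest apoptosis value both without water replicate 2. Signals near background limit Eda2r and the dim Cflar and Polk probes.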
